A study of Homo sapiens with 19 samples.

Results

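SKBR3 is an established human breast cancer cell line in which ERBB2 is amplified. Its DNA damage response is described here through 40 genes of damage signalling and DNA repair. They were chosen by name from pathway knowledge, but with earlier results of these data known, so the choice was not independent of the data. Of these genes, 36 had an array probe set of their own, and all 36 passed the filter on low signals, out of 12925 genes tested and 19775 with a probe set. BRCA2, FANCA, FANCD2 and PMS2 had no probe set naming them alone and were not analysed here. The cells were left untreated (3 arrays), exposed to 60 nM epirubicin over 3 days, or kept at 1% oxygen over 7 days. Treated cells were sorted on CD44, a cell surface receptor for hyaluronan, into a CD44-/lo and a CD44hi fraction, with 4 arrays for each of the 4 sorted groups. Untreated cells carry no label of a sort, and comparisons with them therefore cannot tell treatment from sorting. The samples are called biological replicates, but no separate cultures are stated, and the p-values measure only the spread between these samples.

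Double-strand breaks are sensed by the MRE11-RAD50-NBN complex and the kinase ATM, while stalled replication forks activate ATR. Both pass the signal to the checkpoint kinases CHEK2 and CHEK1. Breaks are then repaired by homologous recombination, which copies an intact sister chromatid and is used mainly in S and G2 phase, or by end joining, which works throughout the cell cycle. The Fanconi anaemia proteins remove crosslinks between DNA strands. Epirubicin, an anthracycline, creates breaks by holding topoisomerase II in its DNA-bound state. Low oxygen has been described to lower the expression of several homologous recombination and mismatch repair genes in cancer cells.

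Promoters of 4 members are shown because they hold letters that E2F factors or the CCAAT-binding factor NF-Y recognise, and because the genes span the response found here. RAD51AP1, CHEK2 and EXO1 fell strongly after hypoxia, and FANCC was not called in any comparison. Each window runs from 130 bases before to 20 bases after the RefSeq start in GRCh38.p14, on the gene's own strand. Capitals mark ATTGG, which is CCAAT on the opposite strand, in the first pair, and the E2F words in the second pair. The windows lie at chr12:4538760-4538909 (plus strand), chr22:28741801-28741950 (minus strand), chr1:241848074-241848223 (plus strand) and chr9:95317690-95317839 (minus strand).
RAD51AP1: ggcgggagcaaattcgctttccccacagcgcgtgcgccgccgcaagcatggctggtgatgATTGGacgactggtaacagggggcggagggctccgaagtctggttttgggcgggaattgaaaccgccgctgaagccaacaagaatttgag
CHEK2: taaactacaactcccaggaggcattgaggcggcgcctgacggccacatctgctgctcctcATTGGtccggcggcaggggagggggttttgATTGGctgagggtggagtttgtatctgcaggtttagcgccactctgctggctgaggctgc
EXO1: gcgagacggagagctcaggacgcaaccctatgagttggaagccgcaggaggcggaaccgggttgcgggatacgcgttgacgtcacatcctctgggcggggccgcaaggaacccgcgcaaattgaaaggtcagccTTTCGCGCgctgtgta
FANCC: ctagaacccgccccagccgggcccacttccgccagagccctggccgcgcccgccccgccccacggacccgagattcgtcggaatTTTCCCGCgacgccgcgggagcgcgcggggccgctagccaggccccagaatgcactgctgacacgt

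Windows of 300 bases, 250 before and 50 after the start, were held for 31 of the 36 measured members and searched on both strands. An E2F word (TTTGGCGC, TTTCCCGC, TTTCGCGC or TTTGCCGC) occurred in 6 of the 31, or 19.4%, against 3.33% of all 27305 windows. CCAAT occurred in 15 of 31, or 48.4%, against 35.7% of all windows. The word TTTGAA, the core of the cell cycle homology region found in promoters of mitotic genes, occurred in 12.9% of members, in 15.4% of all windows and in 65.0% of the windows of a 25-gene mitosis list. ACGTG, the core of the hypoxia response element, occurred in 35.5% of members and 21.6% of all windows. Among the 12 windows of members that were lower after hypoxia than after epirubicin in both CD44 fractions, 8 held CCAAT and 1 held an E2F word. Among the 19 other windows, 7 held CCAAT and 5 held an E2F word. These matches describe letters and do not show binding.

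The largest differences lay between hypoxic and untreated cells. In the CD44-/lo fraction 21 of 36 members fell and 0 rose, with limma and Benjamini-Hochberg adjustment over all genes tested (adjusted p under 0.05), where 11.7% of all genes were called lower, 10.7% higher and 22.5% in either direction. In the CD44hi fraction 21 fell and 0 rose, where 14.1% of all genes were called lower, 12.8% higher and 26.9% in either direction. The median log2 change of the members was -0.76 and -0.73, against 0.02 and 0.00 for all genes. Log2 changes are taken on log2(signal + 4.2), which understates changes of genes with low signals, and values after ± are standard errors. All hypoxic arrays lay below all untreated arrays for 21 members in CD44-/lo cells and 24 in CD44hi cells, as they did for 16.4% and 20.4% of all genes. Both comparisons share the 3 untreated arrays, so their values are set side by side only. Array signals come from all the cells of a sample, so fewer cells of a kind and less RNA per cell cannot be told apart.

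**Figure D1:**
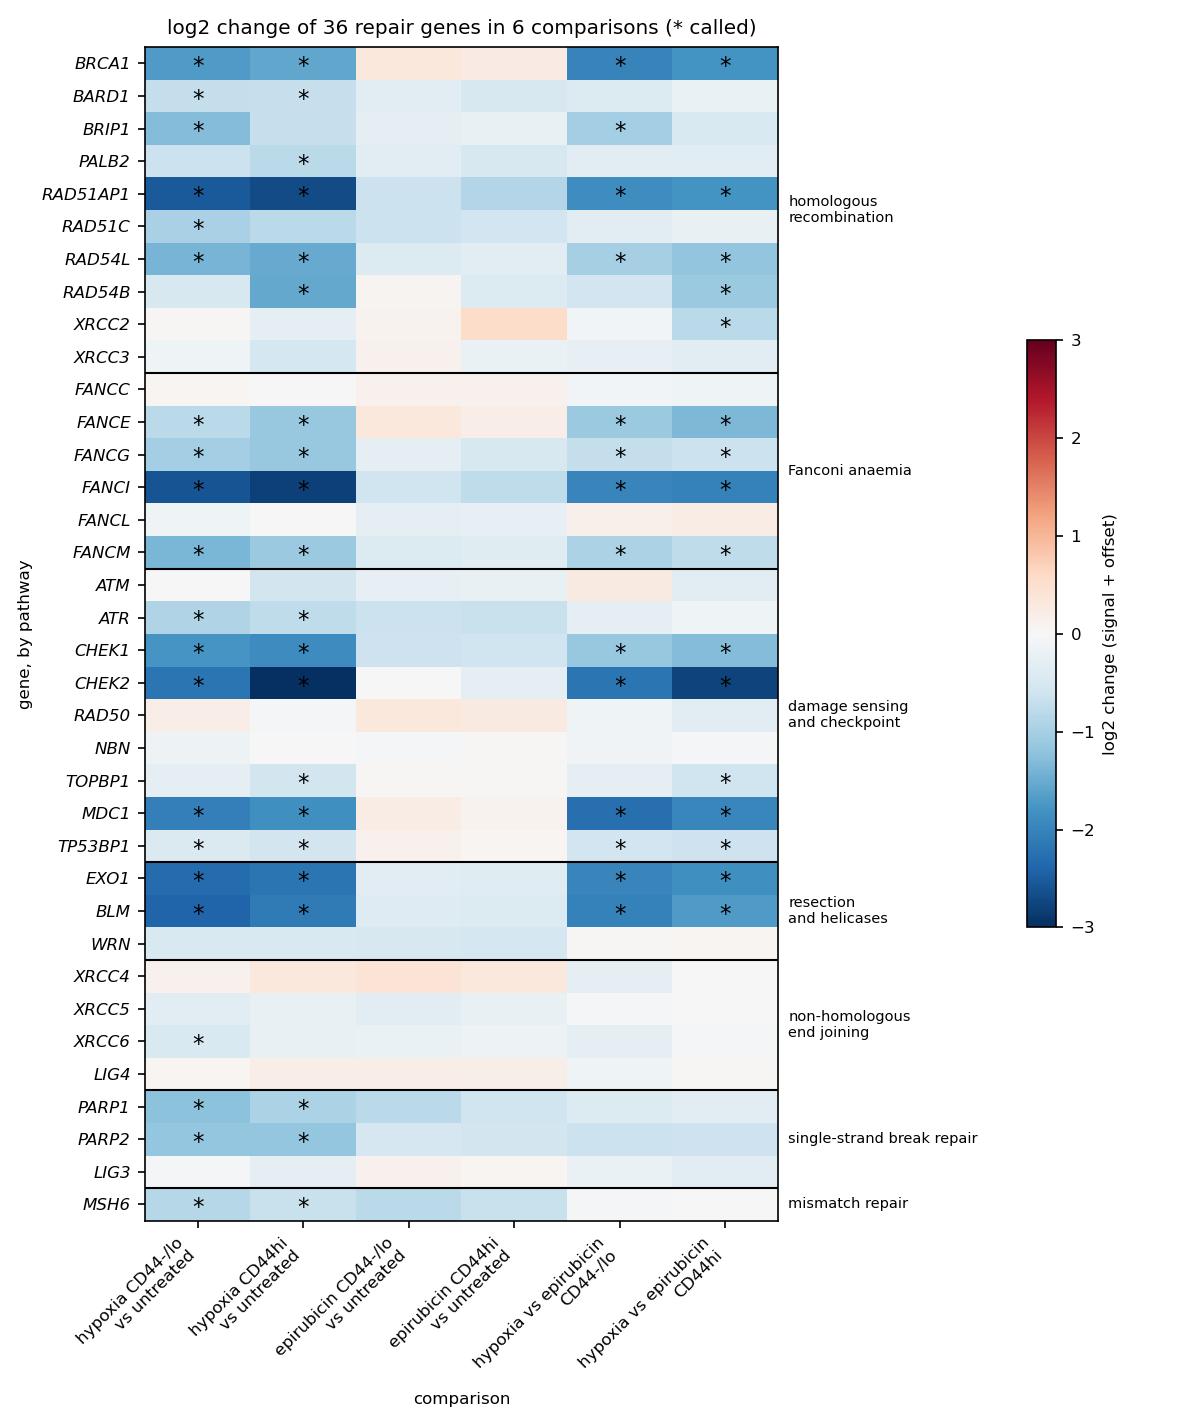
Log2 change of the 36 measured members (rows, by pathway) in 6 comparisons (columns); blue is lower, red is higher, and an asterisk marks an adjusted p under 0.05 in limma. Most asterisks stand in the hypoxia columns, in the recombination, Fanconi anaemia, checkpoint and resection rows, and 0 stand in the columns of epirubicin against untreated.

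Homologous recombination genes fell in part: 6 of 10 were called lower in each hypoxic fraction. Of all genes, 11.7% (CD44-/lo) and 14.1% (CD44hi) were called lower, and these shares also stand beside the pathway counts below. RAD51AP1, which promotes the pairing of DNA strands during recombination, had signals of 373.1, 321.6 and 290.5 in untreated cells. After hypoxia it stood at 84.9, 112, 40.5 and 19.7 in CD44-/lo cells and at 25.1, 90.4, 59.9 and 35.4 in CD44hi cells. No hypoxic array reached an untreated one, and the changes were -2.52 ± 0.49 (adjusted p = 0.00118) and -2.68 ± 0.49 (adjusted p = 0.000453).

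BRCA1, which directs resected breaks into recombination, had low signals of 37.4, 21.1 and 30.9 in untreated cells. Its values were 12.7, 10, 4.3 and 1.3 in hypoxic CD44-/lo cells and 10.2, 13, 5.1 and 2.8 in hypoxic CD44hi cells. All hypoxic arrays lay below all untreated arrays, with changes of -1.69 ± 0.38 (adjusted p = 0.00362) and -1.56 ± 0.38 (adjusted p = 0.0048). Its partner BARD1, the other part of the BRCA1 ubiquitin ligase, fell by 0.72 and 0.68 on the log2 scale. Another BRCA1 probe set, brighter but passed over because its name ends in _x_at, changed less, by -0.85 and -0.80.

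RAD54L, a motor protein that remodels DNA during strand exchange, read 95.6, 103 and 79.2 in untreated cells, 41, 53.4, 18.2 and 25.9 in hypoxic CD44-/lo cells and 23.1, 43.3, 35.7 and 20.9 in hypoxic CD44hi cells. The hypoxic and untreated values did not overlap, with changes of -1.40 ± 0.32 and -1.51 ± 0.32. Its relative RAD54B had signals near the lower end of the table, and its CD44hi values of 1.2, 4.1, 1.8 and 2.3 lay below the untreated values of 12.2, 13.3 and 18.8. RAD54B was called in CD44hi cells (-1.54 ± 0.42) and not in CD44-/lo cells (-0.48 ± 0.42).

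The remaining recombination genes split. The BRCA1-binding helicase BRIP1 (-1.29) and RAD51C, which acts in strand exchange (-0.98), fell in CD44-/lo cells, and their CD44hi changes of -0.69 and -0.81 were not called. PALB2, which bridges BRCA1 and BRCA2, fell in CD44hi cells (-0.82) and changed by -0.64 in CD44-/lo cells, which was not called. XRCC2 and XRCC3, which also act in strand exchange, were called in neither fraction, with changes between -0.52 and 0.03. None of these genes differed between the hypoxic fractions in the test of that difference.

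**Figure D2:**
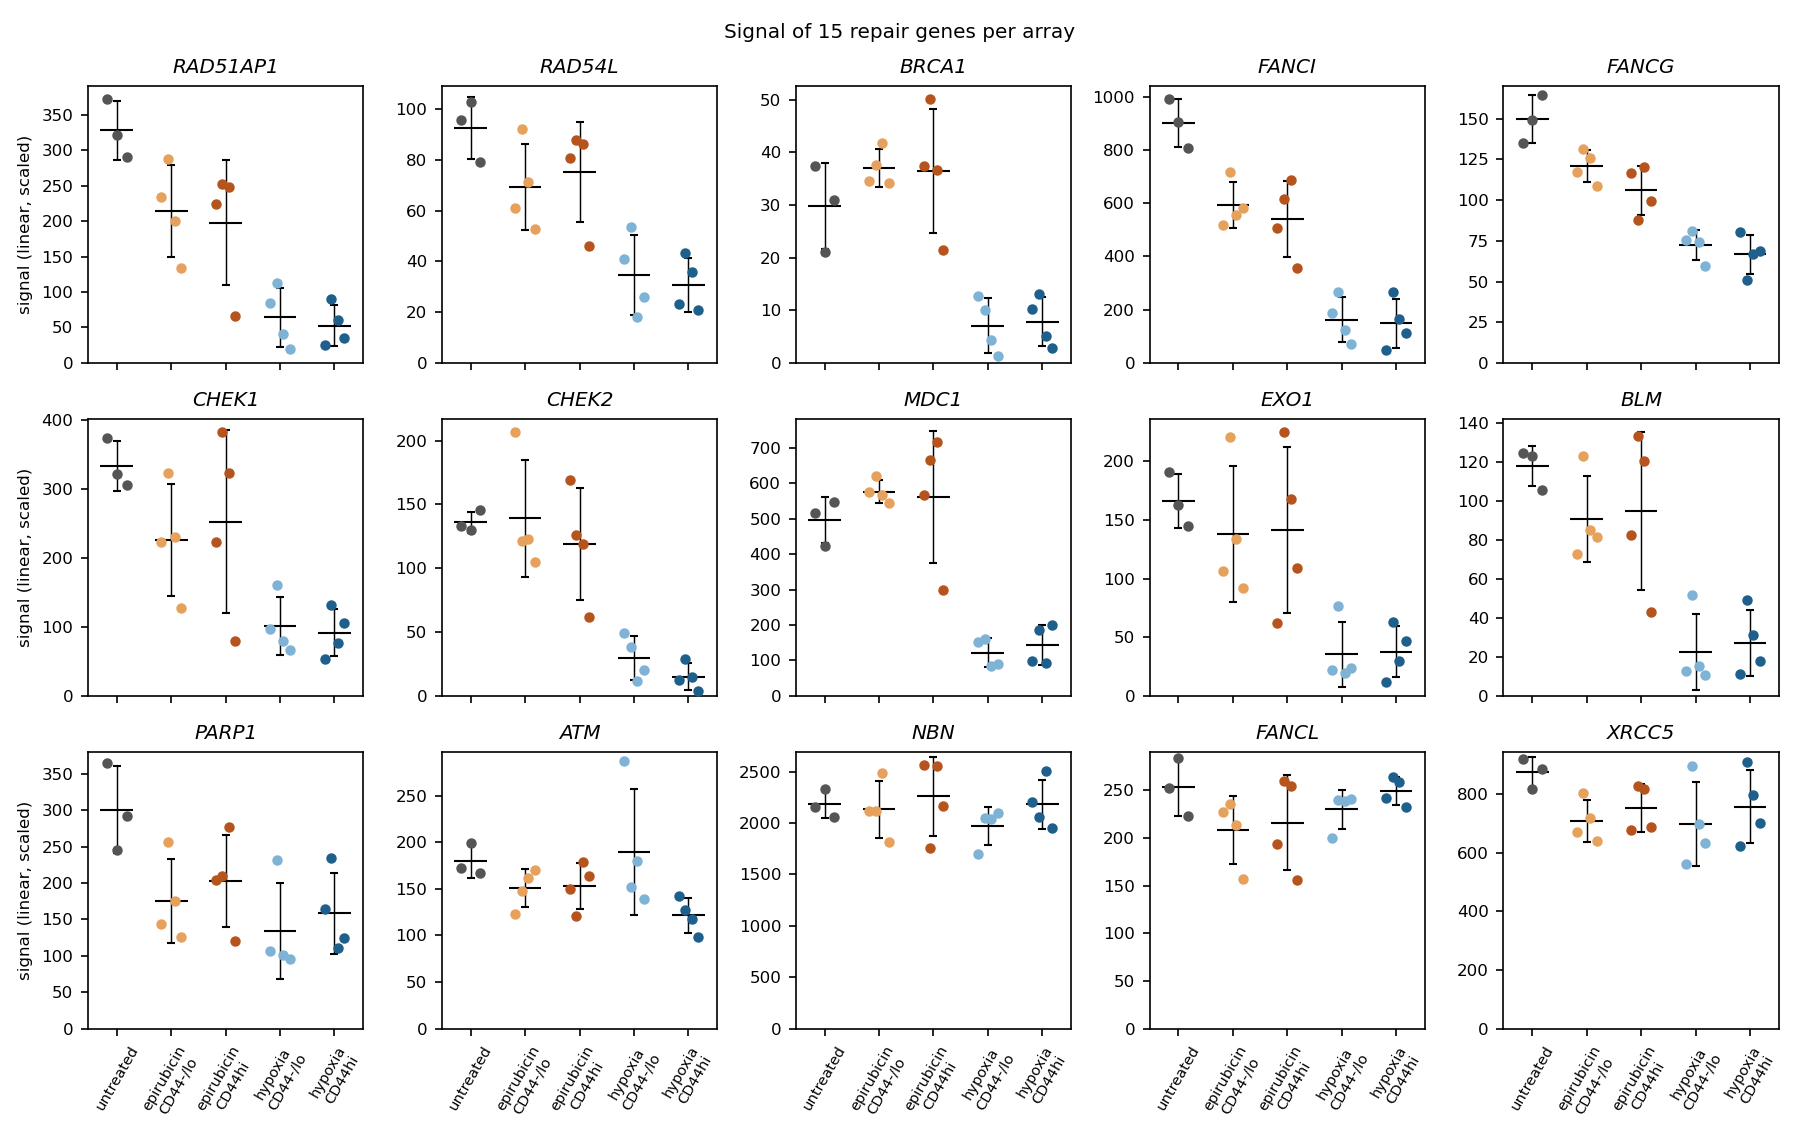
Linear signal of 15 members on each array (points) in the 5 groups, with the mean (bar) and SD (whisker). RAD51AP1, FANCI, CHEK2, MDC1, EXO1 and BLM sit lower in both hypoxic groups than in untreated cells, whereas NBN and FANCL in every treated group overlap with untreated cells.

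Fanconi anaemia genes were lower for 4 of 6 measured members in each hypoxic fraction. FANCI, which with FANCD2 forms the complex that is ubiquitinated at crosslinks, showed the largest fall of all 36 members in CD44-/lo cells. Its signals were 990, 906.4 and 807.5 in untreated cells, 186.6, 267.7, 122.7 and 72.1 in hypoxic CD44-/lo cells, and 48.5, 267.4, 163.3 and 112.6 in hypoxic CD44hi cells. The lowest untreated value was well above the highest hypoxic value, and the changes were -2.59 ± 0.41 (adjusted p = 0.000178) and -2.80 ± 0.41 (adjusted p = 6e-05).

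FANCM, the helicase that loads the pathway on DNA, fell by 1.37 and 1.12 on the log2 scale. FANCG, a core complex subunit, had untreated signals of 135.1, 149.5 and 164.5, and hypoxic signals of 75.6, 81, 74.1 and 59.5 (CD44-/lo) and 80.3, 51, 67 and 68.7 (CD44hi). All hypoxic arrays were lower, with changes of -1.01 ± 0.18 and -1.13 ± 0.18. FANCE, another core subunit, fell by 0.80 and 1.14. FANCC, also a core subunit, and FANCL, the ubiquitin ligase of the pathway, had changes between -0.14 and 0.05 and were not called.

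Among the sensing and checkpoint genes, 5 of 9 fell in CD44-/lo cells and 6 of 9 in CD44hi cells. CHEK2, the kinase activated by ATM, read 132.8, 129.8 and 145.3 in untreated cells, 49.5, 37.8, 11.5 and 20.1 in hypoxic CD44-/lo cells, and 12.5, 28.9, 14.6 and 3.6 in hypoxic CD44hi cells. Its changes were -2.20 ± 0.43 (adjusted p = 0.00119) and -3.05 ± 0.43 (adjusted p = 4.15e-05), the latter the largest of any member in any comparison. The hypoxic groups did not overlap with the untreated group.

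CHEK1, the kinase activated by ATR, read 373.7, 321.2 and 304.8 in untreated cells, 96.5, 160.5, 78.9 and 66.4 in hypoxic CD44-/lo cells and 52.7, 131.3, 76.1 and 105.6 in hypoxic CD44hi cells. All 8 hypoxic arrays were below the untreated ones, with changes of -1.76 ± 0.42 and -1.89 ± 0.42. ATR itself fell by 0.91 and 0.77.

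MDC1, the scaffold that binds phosphorylated histone H2AX, fell by 2.04 ± 0.30 (adjusted p = 9.4e-05) and by 1.83 ± 0.30 (adjusted p = 0.000167). Its untreated signals of 515.1, 424 and 548.5 compared with 151.7, 161.1, 83.2 and 90.3 in hypoxic CD44-/lo cells and 98.7, 185.9, 91.2 and 199.9 in hypoxic CD44hi cells. TP53BP1, which favours end joining over resection, fell by 0.44 and 0.56. TOPBP1, an activator of ATR, fell in CD44hi cells (-0.55) and changed by -0.26, which was not called, in CD44-/lo cells. The sensors RAD50 and NBN had changes between -0.15 and 0.20 and were not called. ATM was not called either, at 0.02 in CD44-/lo and -0.56 in CD44hi cells (adjusted p = 0.0636). In CD44hi cells ATM was called lower in 3 alternative fits, with either covariate and with the compared groups only. Other ATM probe sets past the filter changed by -0.46 to 0.43 (CD44-/lo) and -0.91 to 0.25 (CD44hi). Those of NBN changed by -0.29 to 0.66 and -0.08 to 0.77, and none was tested singly.

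EXO1 and BLM, an exonuclease and a helicase that resect breaks, both fell. EXO1 read 190.9, 162.5 and 144.8 in untreated cells, 21.7, 76.7, 19.2 and 23.4 in hypoxic CD44-/lo cells and 11.8, 62.6, 29.7 and 46.5 in hypoxic CD44hi cells. The groups did not overlap, with changes of -2.31 ± 0.48 and -2.20 ± 0.48. BLM read 124.6, 123.2 and 106 in untreated cells, 12.9, 51.8, 15.2 and 10.5 in hypoxic CD44-/lo cells and 11, 49.2, 31.2 and 17.6 in hypoxic CD44hi cells, with changes of -2.41 ± 0.44 and -2.11 ± 0.44. Array 2 was the highest of each hypoxic group for both genes. WRN, another helicase of the same family as BLM, changed by -0.46 in both fractions and was not called.

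Of the genes of non-homologous end joining, 1 of 4 fell in CD44-/lo cells, where 11.7% of all genes were called lower, and 0 of 4 fell in CD44hi cells, where 14.1% were. These 4 genes are too few to set their share against that of all genes. XRCC6, a subunit of the Ku ring that caps broken ends, fell by 0.46 ± 0.13 (adjusted p = 0.0119) in CD44-/lo cells. The other Ku subunit XRCC5, the end ligase LIG4 and its partner XRCC4 were not called, with changes between -0.34 and 0.32. A further XRCC5 probe set past the filter changed by -0.73 and -0.79 and was not tested singly.

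In single-strand break repair 2 of 3 members fell in each fraction, and 3 genes are too few to set their share against that of all genes. PARP1, which marks nicks with poly(ADP-ribose), fell by 1.23 ± 0.32 and 0.95 ± 0.32. Its relative PARP2 fell by 1.16 ± 0.26 in each fraction. LIG3, the ligase of this pathway, was not called (-0.07 and -0.27). Its other probe sets past the filter fell more, by 0.46 to 0.59 in CD44-/lo cells and 0.68 to 0.88 in CD44hi cells, and were not tested singly. The mismatch repair gene MSH6, which recognises mispaired bases, had untreated signals of 752.6, 528.3 and 504.9, hypoxic CD44-/lo signals of 223.5, 409, 285.8 and 416.1, and hypoxic CD44hi signals of 381, 449.9, 319 and 330.5. It fell by 0.85 ± 0.24 (adjusted p = 0.014) and 0.67 ± 0.24 (adjusted p = 0.0414). Its other probe set past the filter changed by -0.52 and -0.51. With the mean of all its probe sets, including those below the filter, MSH6 changed by -0.13 and -0.22 and was not called. MSH6 was the only mismatch repair member measured, and 0 of 3 further mismatch repair genes were called in each fraction.

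Many members have further probe sets on the array. Only those past the filter on low signals are counted here. Of the 21 members lower in CD44-/lo cells, 12 had 21 such others, of which 20 also had a change below zero. Of the 21 lower in CD44hi cells, 10 had 19 such others, of which 18 did. The exception in each fraction was a CHEK1 probe set, at 0.54 (CD44-/lo) and 0.28 (CD44hi), which was not tested singly. Without untreated array 1, 14 members were called in CD44-/lo cells and 15 in CD44hi cells, where 1625 and 2322 of all genes tested were called.

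After epirubicin no member passed the test against untreated cells. The count was 0 in CD44-/lo cells, where 2.82% of all genes were called, and 0 in CD44hi cells, where 6.42% were. At an unadjusted p under 0.05 there were 4 and 5 of the 36 members, against 18.2% and 23.1% of all genes. The median changes were -0.27 and -0.26, against 0.03 and 0.00 for all genes. All epirubicin arrays lay below all untreated arrays for 10 members in CD44-/lo and 7 in CD44hi cells, against 10.5% and 12.6% of all genes. These comparisons share the untreated arrays with each other and with those of hypoxia.

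The members nearest to a call were MSH6 and ATR. MSH6 read 305.4, 428.7, 268.2 and 334.6 after epirubicin in CD44-/lo cells and 247.7, 415.5, 396.5 and 440.6 in CD44hi cells, all below the 3 untreated values. Its changes were -0.82 ± 0.24 (adjusted p = 0.0672) and -0.67 ± 0.24 (adjusted p = 0.0928). ATR changed by -0.65 ± 0.22 (adjusted p = 0.119) and -0.66 ± 0.22 (adjusted p = 0.0751), also with no overlap. Without epirubicin CD44-/lo array 2, MSH6 was called (adjusted p = 0.0394).

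Other members after epirubicin read as follows. MDC1 read 576.4, 619.8, 566.8 and 543.8 in CD44-/lo cells and 567.6, 666.6, 717.5 and 299 in CD44hi cells, overlapping with untreated cells. CHEK2 read 206.9, 121.4, 122.5 and 105.2 in CD44-/lo cells, with a change of -0.02 ± 0.43. BRCA1 changed by 0.31 ± 0.38 and 0.24 ± 0.38. FANCI was below the untreated range on all 8 epirubicin arrays, at 355.3 to 718.2, with changes of -0.60 ± 0.41 and -0.77 ± 0.41 that were not called.

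Epirubicin arrays numbered 4 stood apart. Averaged over the 36 members, they lay at -0.37 (CD44-/lo) and -0.48 (CD44hi) against the untreated mean, while the other 6 epirubicin arrays lay between -0.26 and -0.02. They also had the highest 3' to 5' ratio of ACTB, a measure of RNA integrity, at 1.71 and 1.85. With this ratio as a covariate the count of called members stayed at 0 in each fraction, and the members' median changes became -0.14 and -0.08. Without both arrays the counts were 0 and the medians -0.16 in each fraction. With the level of the hybridisation controls as a covariate the counts were 0 and the medians -0.05 and 0.01. Over all genes tested, these 3 settings called 261 and 279, 211 and 465, and 96 and 104 genes, against 365 and 830 in the main fit. The control level (log2) was 9.43 to 9.69 on untreated and 9.58 to 11.04 on epirubicin arrays. Its part therefore cannot be fully told apart from that of treatment.

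**Figure D3:**
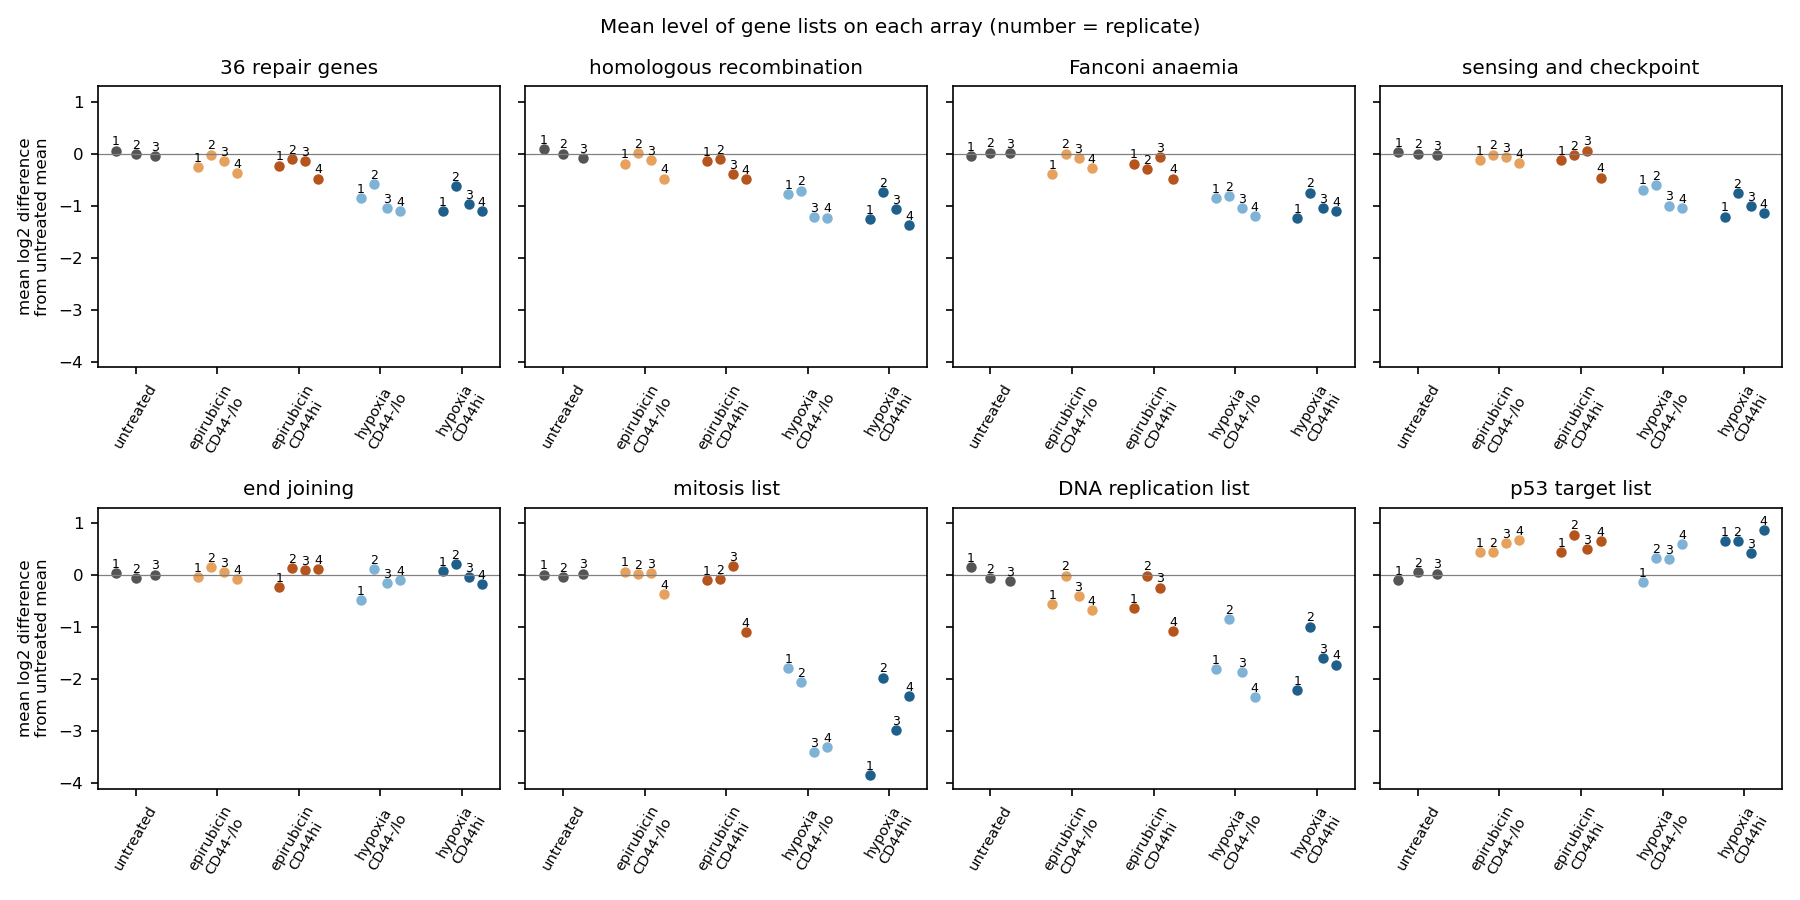
Mean log2 difference from the untreated mean on each array (number = replicate) for all 36 members, 4 of their pathways and 3 lists of other genes. Hypoxic arrays lie at -0.58 to -1.11 for the members, and epirubicin arrays lie at -0.02 to -0.48.

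Hypoxia was next set against epirubicin within each fraction, a comparison that uses no untreated array. In CD44-/lo cells 14 of 36 members were lower after hypoxia and 0 were higher, where 9.84% of all genes were called lower, 7.08% higher and 16.9% in either direction. In CD44hi cells 16 were lower and 0 higher, where 10.2% were called lower, 8% higher and 18.2% in either direction. Hypoxic and epirubicin arrays were separated, with hypoxia lower, for 10 and 11 members, against 10.2% and 9.73% of all genes. The 13 genes called in both fractions, 92.9% of the 14 and 81.2% of the 16, were BRCA1, RAD51AP1, RAD54L, FANCE, FANCG, FANCI, FANCM, CHEK1, CHEK2, MDC1, TP53BP1, EXO1 and BLM. Fractions with the same number may come from one culture, so these lists are not independent. The duration of treatment differed (3 and 7 days), and its part cannot be told apart from that of the agent.

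The log2 difference of MDC1 was -2.26 ± 0.28 in CD44-/lo cells (adjusted p = 1.44e-05) and -1.95 ± 0.28 in CD44hi cells (adjusted p = 6.63e-05). That of CHEK2 was -2.18 ± 0.40 and -2.78 ± 0.40. BRCA1 read 34.5, 37.7, 41.9 and 34.2 after epirubicin in CD44-/lo cells, all above the hypoxic values given before (adjusted p = 0.000495), and differed by -1.80 ± 0.35 in CD44hi cells. FANCI differed by -1.99 ± 0.38 and -2.03 ± 0.38. FANCE, which was not called after epirubicin, differed by -1.12 ± 0.25 and -1.35 ± 0.25. BRIP1 was called in CD44-/lo cells alone, and RAD54B, XRCC2 and TOPBP1 in CD44hi cells alone, though the difference between the fractions was not called for any of them. For XRCC2 this rested on epirubicin signals of 116.1, 92.1, 114.3 and 86.8, above the hypoxic CD44hi signals of 63.7, 48.4, 52.2 and 61.4.

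Some genes that fell after hypoxia against untreated cells were not called between the treatments. MSH6 differed by -0.03 ± 0.22 and 0.00 ± 0.22, ATR by -0.26 ± 0.20 and -0.12 ± 0.20, and PARP1 by -0.42 ± 0.30 and -0.35 ± 0.30. PARP2 differed by -0.65 ± 0.24 (adjusted p = 0.0705) and -0.61 ± 0.24 (adjusted p = 0.0812). Without epirubicin CD44hi array 4 the latter was called at -0.91 (adjusted p = 0.00252). None of the 4 end joining genes was called.

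**Figure D4:**
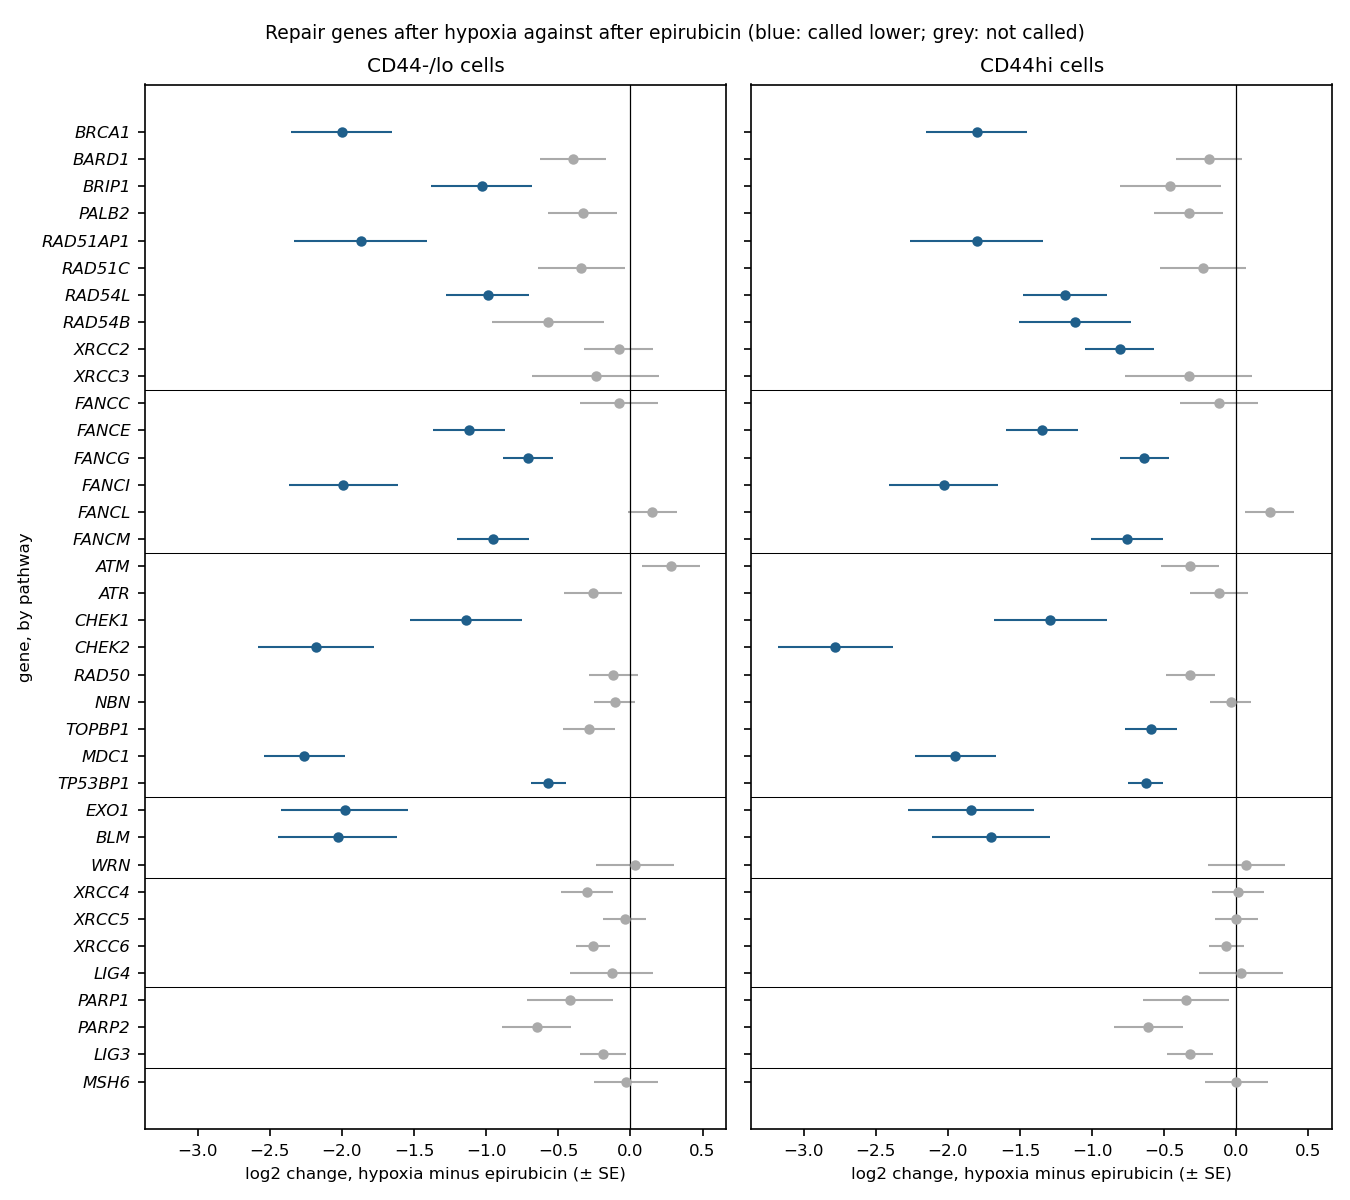
Log2 change of each measured member, hypoxia minus epirubicin, with its standard error, in CD44-/lo (left) and CD44hi cells (right). The 14 and 16 genes called lower in limma are blue, and CHEK2, MDC1, FANCI and BRCA1 are among those farthest to the left in both panels.

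No member passed the test between the CD44 fractions. After epirubicin 0 members were called between CD44hi and CD44-/lo cells, where 0.0232% of all genes were called. The fit used here does not pair arrays by replicate number. An unadjusted p under 0.05 was reached by 0 members and 2.41% of all genes. After hypoxia 0 were called, as were 0% of all genes, and 3 members and 6.88% of all genes had an unadjusted p under 0.05. The 3 members were RAD54B (-1.06 ± 0.39), ATM (-0.58 ± 0.20) and CHEK2 (-0.85 ± 0.40), all lower in CD44hi cells, with a lowest adjusted p of 0.675. For RAD54B the hypoxic CD44hi values lay below all CD44-/lo values of 8.8, 5.3, 17 and 8.3, and 1.4% of all genes were separated in that direction. The interaction of CD44 fraction and treatment was called for 0 members and 0% of all genes. Its unadjusted p was under 0.05 for 2.05% of all genes and for 2 members, XRCC2 (-0.73 ± 0.34) and ATM (-0.60 ± 0.28). CD44 itself read 59.7 to 132 in CD44-/lo and 216.4 to 1268.3 in CD44hi cells after epirubicin, and 20.5 to 455.7 against 486.7 to 1658.3 after hypoxia. In the same limma test CD44 was not called either, at 2.57 ± 0.65 after epirubicin and 2.90 ± 0.65 after hypoxia (adjusted p = 0.386). The test thus missed a difference of that size in the sorted marker, and 0 called members does not show that the fractions are alike.

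A list of 97 further repair genes, of which 90 were tested, gave more genes lower than higher after hypoxia. In hypoxic cells 31 (CD44-/lo) and 36 (CD44hi) fell and 1 and 2 rose, with medians of -0.44 and -0.39. These are 34.4% and 40% lower, where 11.7% and 14.1% of all genes were called lower. The shares called higher were 1.11% and 2.22%, against 10.7% and 12.8% of all genes. RMI2, a partner of BLM, fell by 2.51 and 3.22, and the phosphatase CDC25C, which drives entry into mitosis, fell by 2.59 and 2.80. NEIL3, a glycosylase that also opens crosslinks, fell by 2.25 and 2.18, and TIMELESS, a fork protection protein, fell by 2.10 and 1.83. The translesion polymerase POLI rose by 0.84 and 0.72, and the nuclease MUS81 rose by 0.78 in CD44hi cells. After epirubicin XPA, a nucleotide excision repair protein, fell by 0.74 and 0.93, and OGG1 (-0.80) and ALKBH2 (-0.75), which remove damaged bases or methyl groups, fell in CD44hi cells. They were the only calls after epirubicin, 1 (CD44-/lo) and 3 (CD44hi) of the 90. In those comparisons 0.565% and 1.79% of all genes were called lower.

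Proliferation genes moved with the members. All 25 genes of the mitosis list fell in both hypoxic fractions, with medians of -2.68 and -2.81, and 24 of 25 DNA replication genes fell, with medians of -1.68 and -1.56. MKI67, a marker of cycling cells, fell by 2.92 in each fraction. After epirubicin 0 genes of either list were called, and their medians were -0.04 and -0.26 (mitosis) and -0.42 and -0.49 (replication). CDKN1A, the p53 target that halts the cell cycle, rose by 2.71 and 3.72 after hypoxia. Its epirubicin changes of 0.98 and 1.16 were not called. Of 17 p53 targets tested, 4 rose and 0 fell in each hypoxic fraction, with medians of 0.05 and 0.16. In those comparisons 10.7% and 12.8% of all genes were called higher. After epirubicin 2 and 3 of the 17 rose, where 2.26% and 4.63% of all genes did. MDM2, another p53 target, was not called, at -0.57 and -0.65 after hypoxia and -0.42 in each epirubicin fraction. Hypoxic arrays numbered 2 had the smallest member shift, at -0.58 and -0.63 against -0.86 to -1.11 on the others, and replication means of -0.85 and -0.99 against -1.59 to -2.34. The mitosis list did not follow this order in CD44-/lo cells, where array 1 had the smallest shift (-1.78) and array 2 stood at -2.06. In CD44hi cells array 2 had the smallest mitosis shift (-1.97, against -2.33 to -3.84). The part of proliferation in the repair gene changes was not tested.

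The 9 luminal markers were mixed. ERBB2 read 2363.7 to 4195, KRT8 2505.7 to 3492.8 and EPCAM 2067.6 to 3274 over the 19 arrays, while CDH1, the epithelial cadherin, stayed at 2.3 to 35.4. The luminal transcription factors TFAP2B and SPDEF ranged from 1.3 to 138.7 and from 3.3 to 427.2. After hypoxia 1 luminal marker of 9 fell and 1 rose in CD44-/lo cells, and 2 fell and 0 rose in CD44hi cells. TFAP2B fell in both fractions (-4.11 and -3.81). All 8 immune markers with a probe set stayed under 100. Their summed signal was 16.5 to 28.4 in untreated cells, 42.7 to 56.8 and 41.9 to 118 after epirubicin, and 17.9 to 61.8 and 38.3 to 55.1 after hypoxia. Of 10 stromal markers 8 stayed under 100, with a sum of 87 to 106 in untreated cells and 149 to 435 in treated cells, and the part of these marker lists in the results was not tested.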

How the data were processed

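RNA (200 ng per sample) was measured on 19 Affymetrix arrays with 54675 probe sets. The authors deposited signal intensity on a linear scale, computed with MAS5 per the submitters' processing notes. Its settings are not given in the sources used here. Every array had a 2% trimmed mean of 100.0, so no further scaling was applied. Each gene was represented by its brightest probe set naming 1 gene (41091 such probe sets), passing over names ending in _x_at where another existed. Genes reaching 16.9, the table median, on at least 3 arrays were tested as log2(signal + 4.2), 4.2 being the 25th percentile. All 5 groups were fitted together in limma 3.58.1 (R 4.3.3) with a variance trend, and p-values of the two-sided test were adjusted by the Benjamini-Hochberg method across the 12925 genes in each of 9 comparisons. The number of arrays limits the precision. The fit was tested on simulated data.

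All 40 members may be named. Of the further repair genes, up to 6 called genes with the largest change in each direction per comparison may be named, as well as MKI67, TOP2A, PCNA, CDKN1A, MDM2, CD44 and ERBB2. KRT8, EPCAM, CDH1, TFAP2B and SPDEF were named after their values were seen. The members and lists were chosen with earlier results of these data known. Equal replicate numbers were checked for pairing: deviations from group means correlated at 0.11 to 0.55 in all 4 pairs of the epirubicin fractions, which counts as paired, and at -0.04 to 0.63 in the hypoxia fractions, which does not. Alternatives covered the pseudocount, filter, normalization, probe sets, covariates, fitted groups, a replicate block and leaving out each array. Promoter windows are from RefSeq, GRCh38.p14.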

Additional observations from a re-analysis of the deposited data

Results flagged for a closer look

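In 144 sets of 4 arrays, 1 member in 1 group each, 11 had an array whose gap to the nearest other exceeded Dixon's critical value as a share of the group's range. Chance alone flags about 5% of such sets. On epirubicin arrays numbered 4, RAD51AP1 (66.7 against 224.2 to 251.8) and RAD54L (46.1 against 80.6 to 87.7) were low in CD44hi cells. On the same arrays RAD50 was high, at 248 against 164.4 to 171.3 in CD44-/lo cells and 221 against 162.6 to 166.7 in CD44hi cells. XRCC4 read 72 on epirubicin CD44-/lo array 2 against 79 to 80.3. On hypoxic CD44-/lo array 2, EXO1 (76.7 against 19.2 to 23.4) and PARP1 (232 against 95.4 to 106.7) were high. On hypoxic CD44-/lo array 1, FANCL (200 against 238.6 to 241.3), NBN (1700 against 2042.4 to 2093.9) and XRCC6 (732 against 919.6 to 939.9) were low. TP53BP1 read 269 on hypoxic CD44hi array 4 against 315.8 to 321.5.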

How the results depend on the processing

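No member changed direction while called in any alternative. Of the calls against untreated cells, 10 of 21 (CD44-/lo) and 14 of 21 (CD44hi) after hypoxia held in every alternative run, and of those against epirubicin 10 of 14 and 9 of 16. With a replicate block the count for hypoxic CD44-/lo cells against untreated fell from 21 to 10. The count over all genes tested fell from 2903 to 1126. Member counts for epirubicin against untreated went from 0 to 2 (CD44-/lo: FANCI, MSH6) and 1 (CD44hi: FANCI), where 900 and 1178 of all genes were called. The groups in these comparisons share only a replicate number. In the paired epirubicin fractions the block gave 0 called members, with a lowest adjusted p of 0.303 in limma. It called 18 of all genes tested, against 3 in the main fit. Fitted with the compared groups only, epirubicin against untreated gave 4 members in CD44-/lo cells (FANCI, ATR, PARP1, MSH6) and 2 in CD44hi cells (FANCI, ATR). That setting called 1190 and 1356 of all genes tested, against 365 and 830 in the main fit. The cause of these changes in count was not tested. Leaving out 1 array at a time, the counts after hypoxia against untreated ranged from 14 to 22 and from 15 to 22, against epirubicin from 11 to 15 and from 12 to 16, and after epirubicin against untreated from 0 to 1 (CD44-/lo) and 0 to 0 (CD44hi). The settings without both hypoxic arrays 2 (22 and 22 members against untreated) or both epirubicin arrays 4 were chosen after seeing the data. Signals near the offset, as for RAD54B, BRIP1 and BRCA1 after hypoxia, limit the size of their log2 changes.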
